A study of Mus musculus with 28 samples.

Results

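Macrophages use arginine in competing ways, and 6 genes that mark this choice and the linked activation states were followed here: Arg1, Arg2, Nos2, Chil3, Retnla and Mgl2. Every probe set that the array annotation gives to one of these genes alone was taken, which made 7 probe sets of 45037 tested, and 6 genes of 18193. Arg2 had a pair of probe sets (1418847_at and 1438841_s_at), and the other genes had 1 each. A further probe set, 1425451_s_at, is annotated to both Chil4 and Chil3, so it is not counted and is given beside Chil3 only.

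C57BL/6 J mice of 12 weeks gave the bone marrow from which the macrophages were grown. In the compound experiment, cells from Nrf2-/- mice (KO) and from Nrf2+/+ mice (WT) were incubated for 4 h with RA839, a small molecule that binds Keap1, or with the solvent alone, all at 0.2% DMSO. The groups were KO with RA839, KO with DMSO, WT with RA839 and WT with DMSO. In the siRNA experiment, Nrf2+/+ cells received either of 2 siRNAs against Keap1 (siKeap1-1, siKeap1-2) or a control siRNA (siControl). Each of the 7 groups held 4 arrays, described in the design text as biological replicates, and array numbers 1 to 4 below are those of the labels. The design text once writes RA838 where the sample labels write RA839. The dose of RA839, the siRNA sequences, the time after transfection, the Nrf2 allele and whether KO and WT mice were littermates or pooled are not stated in the labels or design text. The labels name no lipopolysaccharide or cytokine treatment of the cells put on arrays.

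Arginase, encoded by Arg1 (cytosolic) and Arg2 (mitochondrial), splits arginine into ornithine and urea, whereas the inducible nitric oxide synthase Nos2 turns it into citrulline and nitric oxide. In mouse macrophages, interleukin 4 and interleukin 13 acting through STAT6 raise Arg1, Chil3 (the secreted chitinase-like protein Ym1), Retnla (the secreted protein Fizz1) and Mgl2 (a galactose-binding surface lectin, CD301b). Lipopolysaccharide and interferon gamma raise Nos2, and Keap1 holds Nrf2, a transcription factor encoded by Nfe2l2, in check by directing its degradation.

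RefSeq promoter sequences of assembly GRCm38.p6 were at hand for 3 of the 6 genes, each running from 250 bases before the gene's start to 50 bases after it. All that were at hand are shown. Chil3 and Retnla had the widest array-to-array spread beside Arg1, and Mgl2 was among the genes that passed the test. Capitals mark the matches found, and positions count from the base before the start as −1. Chil3 lies on the minus strand at chr3:106167515-106167814, Retnla on the plus strand at chr16:48842359-48842658, and Mgl2 on the plus strand at chr11:70130107-70130406.
Chil3: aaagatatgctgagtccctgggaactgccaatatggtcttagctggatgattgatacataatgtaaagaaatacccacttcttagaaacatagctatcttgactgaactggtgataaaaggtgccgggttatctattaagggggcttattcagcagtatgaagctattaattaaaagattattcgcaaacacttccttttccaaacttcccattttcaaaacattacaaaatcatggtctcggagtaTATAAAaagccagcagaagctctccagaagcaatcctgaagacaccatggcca
Retnla: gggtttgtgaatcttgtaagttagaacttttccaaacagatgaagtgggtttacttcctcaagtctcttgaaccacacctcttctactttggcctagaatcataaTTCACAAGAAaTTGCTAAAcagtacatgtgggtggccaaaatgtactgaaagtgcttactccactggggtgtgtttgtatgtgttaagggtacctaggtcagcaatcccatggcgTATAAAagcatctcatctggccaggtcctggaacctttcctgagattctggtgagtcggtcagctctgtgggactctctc
Mgl2: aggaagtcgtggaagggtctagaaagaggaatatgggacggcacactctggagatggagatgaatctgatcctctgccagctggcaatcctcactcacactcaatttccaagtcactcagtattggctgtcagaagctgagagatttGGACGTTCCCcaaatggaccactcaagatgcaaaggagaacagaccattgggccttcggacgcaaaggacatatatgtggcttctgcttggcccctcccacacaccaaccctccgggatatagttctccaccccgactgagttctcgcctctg

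Both strands were searched for 6 motifs. The Retnla window held a STAT6-type match (TTC and GAA with 4 bases between, present in 6.95% of 32851 promoters) starting at −145. A C/EBP-type match (TTGCNNAA, in 10.8% of promoters) started at −134, and a TATAAA (in 13.6%) at −30. Chil3 held a TATAAA starting at −3. Mgl2 held an NF-kB-type match (GGGA and TCC with 3 bases between, in 4.59%) on the reverse strand starting at −103. The antioxidant response element core TGACNNNGC (in 12.4%) and the AP-1 type TGANTCA (in 7.81%), letters that can overlap each other, were in none of the 3 windows. A match is a description of the letters only.

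Values below are RMA log2 intensities, differences are on the log2 scale ± standard error with n = 4 arrays in each group, and a probe set passed when its limma Benjamini-Hochberg adjusted p over the 45037 probe sets was under 0.05. The knockout and knockdown labels held on every array: Nfe2l2 read 3.18 to 3.52 in KO and 11.85 to 12.96 in WT. Keap1 read 8.93 to 9.13 with siKeap1-1, 9.15 to 9.47 with siKeap1-2 and 10.94 to 11.16 with siControl. Macrophage markers were bright, with Csf1r group means of 14.31 to 14.49 and Adgre1 means of 12.78 to 13.06. WT array 2 with RA839 stood apart, with a Gapdh 3′ minus 5′ difference of 3.74 against 0.77 to 1.00 on the other compound arrays. Leaving out both WT arrays numbered 2 changed no member's call for RA839 in WT.

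KO macrophages had more Arg1, Arg2 and Mgl2 RNA than WT macrophages, with either DMSO or RA839. Arg1 was 9.79-fold higher in KO in DMSO, Arg2 was 1.8- to 2.16-fold higher by its probe sets, and Mgl2 was 1.99-fold higher. Chil3 was lower in KO on every array without passing the test, and Nos2 and Retnla differed by less than their spread. In DMSO, 4 of the 7 probe sets passed, all higher in KO, where 21.3% of all probe sets passed (9.87% higher in KO). Under RA839, 4 of the 7 also passed, all higher in KO, against 26.3% of all probe sets (13.3% higher). The Actb 3′ minus 5′ difference, a sign of RNA quality, also separated the genotypes: it was 1.28 to 1.45 on the 8 KO arrays and 1.68 to 3.10 on the 8 WT arrays (3.10 on WT array 2 with RA839, at most 2.04 on the others). Its part in the KO against WT values was not tested. Fewer cells of a type and less RNA per cell cannot be told apart in such bulk RNA.

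Arg1 (1419549_at) read 9.32, 9.87, 7.63 and 7.82 on KO arrays 1 to 4 with DMSO, against 4.86, 4.33, 7.47 and 4.81 on WT arrays 1 to 4 with DMSO. With RA839 it read 9.35, 9.76, 7.64 and 7.63 in KO, against 4.65, 4.45, 6.89 and 4.31 in WT. Every KO array lay above every WT array in both media, but KO arrays 3 and 4 were low within KO and WT array 3 was high within WT, so the closest pair in DMSO was KO array 3 and WT array 3. The difference was 3.29 ± 0.76 in DMSO (95% interval 1.69 to 4.90, adjusted p = 0.00598). Under RA839 it was 3.52 ± 0.76, or 11.4-fold (95% interval 1.91 to 5.12, adjusted p = 0.00313). Without both WT arrays numbered 3, an alternative chosen after seeing the data, the differences were 3.99 (adjusted p = 0.00057) in DMSO and 4.12 (adjusted p = 0.000304) under RA839.

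The Arg1 level moved across arrays together with other genes. Its pooled within-group SD was 1.22, and 0.127% of all probe sets had a larger one (the median was 0.20). The mean of 7 measured of 8 dendritic cell markers was 7.37, 7.38, 6.73 and 6.68 on KO arrays 1 to 4 with DMSO, against 6.81, 6.55, 7.34 and 6.93 on WT arrays 1 to 4. With RA839 it was 7.27, 7.37, 6.67 and 6.50 in KO, against 6.78, 6.40, 7.25 and 6.94 in WT. KO arrays 1 and 2 and WT array 3 were thus the highest of their groups for both Arg1 and these markers. This order was not particular to dendritic cell markers: the macrophage and B cell marker means had the same highest arrays in both media. With DMSO the macrophage means were 12.74, 12.75, 12.48 and 12.47 in KO, against 12.28, 12.29, 12.49 and 12.38 in WT. The dendritic cell markers ranged from bright to dim. Group means in the compound experiment were 13.37 to 13.56 for Itgax and 8.03 to 8.42 for Zbtb46. They were 7.38 to 7.96 for Dpp4 and 6.60 to 7.54 for Ccr7. Flt3 had 4.77 to 4.99, Cd209a 3.51 to 3.83 and Xcr1 3.38 to 3.57. Of the 7 markers, 0 passed between KO and WT in DMSO, and the part of such cells in the Arg1 values was not tested. Macrophage markers did not move as 1 group: Fcgr1, an Fc receptor, was 1.98 higher in KO in DMSO (adjusted p = 0.00213), Cd14 was 1.83 higher (adjusted p = 3.02e-07) and the integrin Itgam was −1.04 from WT (adjusted p = 4.91e-05).

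Markers of other cell types moved between the genotypes too, in a fit with 1 probe set per gene in which 25.1% of all genes passed in DMSO. Of 10 measured neutrophil and precursor markers of 12, 3 were lower and 0 higher in KO in DMSO: S100a8 (−0.97, adjusted p = 3.77e-06), Ltf (−1.03, adjusted p = 0.00752) and Ctsg (−0.78, adjusted p = 0.00187). Of 5 measured eosinophil markers of 6, Prg2 (1.11, adjusted p = 0.0226) and Epx (0.49, adjusted p = 0.0202) were higher and Siglecf (−0.29, adjusted p = 0.0384) lower. Of 6 fibroblast and stroma markers 3 were lower: Pdgfra (−0.81, adjusted p = 0.00379), Dcn (−0.59, adjusted p = 0.000385) and Col1a2 (−0.46, adjusted p = 0.0226). Prg2 and Epx were dim, with group means of 3.85 to 4.96. Of 4 measured NK cell markers of 5, Gzma (0.54) and Eomes (0.44) were higher. Kit (0.50) of 6 mast cell and basophil markers was higher, as was Gata1 (0.72) of 3 measured erythroid markers of 5. Of 5 measured T cell markers of 6, Cd4 was lower (−0.77). Adjusted p ran from 0.0054 to 0.0307. Gzma, Eomes, Kit and Gata1 were dim too, with group means of 2.71 to 4.15. So were Ctsg, Dcn, Col1a2 and Pdgfra among the markers lower in KO, with group means of 3.22 to 5.06 in the compound experiment. Others on these lists went the other way without passing, such as Klf1 (−0.16) and Hba-a1 (−0.32) of erythroid cells, Cpa3 (−0.90) of mast cells and Cd3d (0.59) of T cells. Of the fibroblast and stroma markers, Col3a1 (0.47) and Pdgfrb (0.08) were higher without passing, and Col1a1 was at −0.04. The part of such cells in the member values was not tested.

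**Figure D1:**
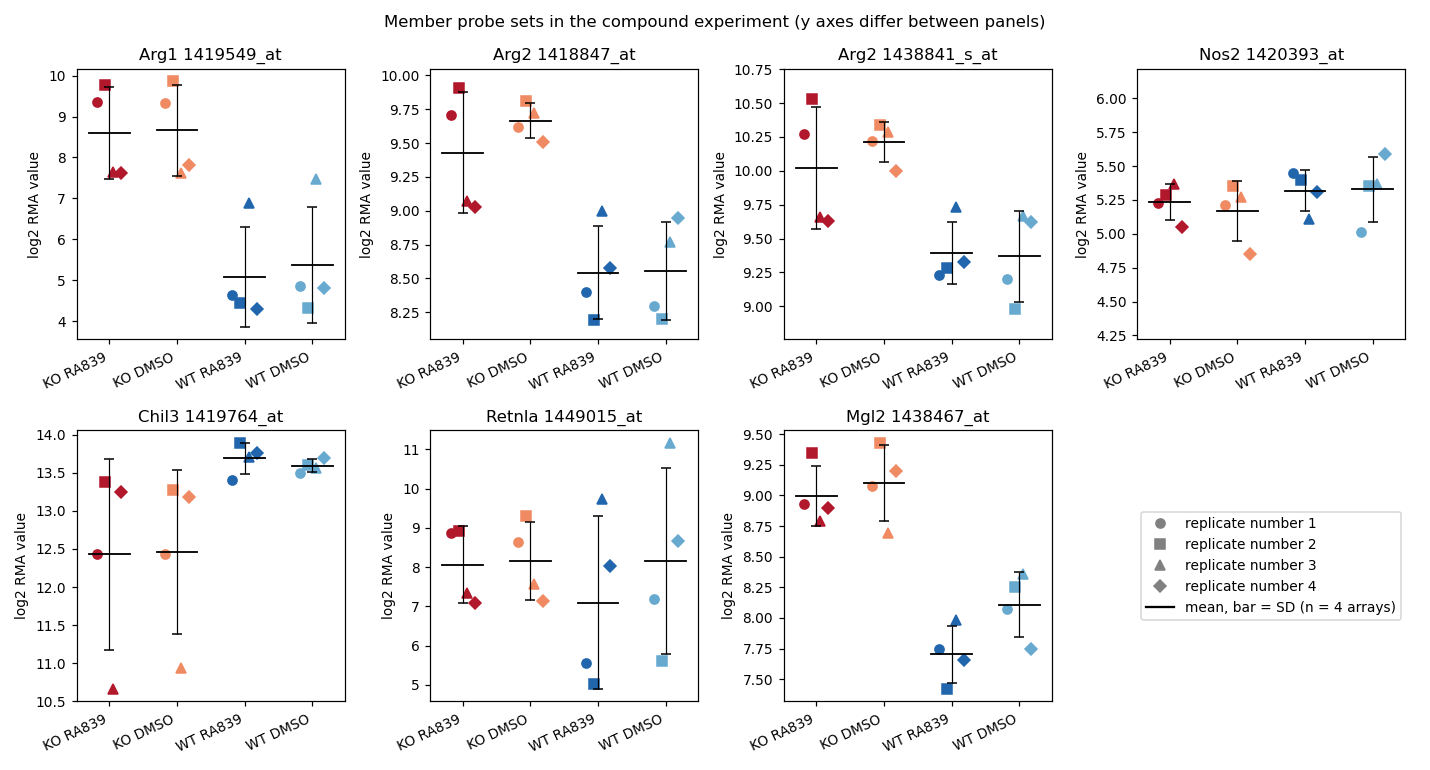
RMA log2 value (y axis, differing between panels) of each member probe set on the 16 compound arrays, by group with KO left of WT and RA839 left of DMSO within each genotype; symbols give the replicate number, lines the mean and bars the SD (n = 4). The Arg1 panel shows KO arrays at 7.63 to 9.87 and WT arrays at 4.31 to 7.47, with WT arrays numbered 3 above the other WT arrays.

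Arg2 was tighter than Arg1 and gave the same direction on both probe sets. Probe set 1418847_at read 9.62, 9.81, 9.72 and 9.51 in KO with DMSO, against 8.30, 8.20, 8.77 and 8.95 in WT with DMSO. With RA839 it read 9.71, 9.91, 9.07 and 9.03 in KO, against 8.40, 8.19, 9.0 and 8.58 in WT. The groups did not overlap in either medium, although KO arrays 3 and 4 with RA839 came close to WT array 3. The difference was 1.11 ± 0.22 in DMSO (2.16-fold, adjusted p = 0.00222) and 0.89 ± 0.22 under RA839 (1.85-fold, adjusted p = 0.00782). With the replicate number as a block in limma, the difference under RA839 did not pass (adjusted p = 0.0799), although the numbers do not pair the genotypes.

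Probe set 1438841_s_at of Arg2 read 10.22, 10.34, 10.29 and 10.00 in KO with DMSO, against 9.20, 8.98, 9.67 and 9.62 in WT with DMSO. With RA839 it read 10.27, 10.53, 9.66 and 9.63 in KO, against 9.23, 9.28, 9.73 and 9.33 in WT. KO and WT were apart in DMSO, whereas under RA839 WT array 3 lay above KO arrays 3 and 4. The difference was 0.84 ± 0.20 in DMSO (1.8-fold, adjusted p = 0.00751) and 0.63 ± 0.20 under RA839 (1.55-fold, adjusted p = 0.0307). The call under RA839 did not hold without KO array 1 (0.55, adjusted p = 0.0867), KO array 2 (0.46, adjusted p = 0.101), or WT array 1 (0.57, adjusted p = 0.0719). It was also lost without WT array 2 (0.59, adjusted p = 0.0659) or WT array 4 (0.61, adjusted p = 0.0628), and with only the KO and WT arrays treated with RA839 in the fit (adjusted p = 0.0681). The replicate number as a block in limma removed this call too (adjusted p = 0.119).

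Nos2, the enzyme that competes with arginase for arginine, read within a narrow band in all 4 groups. Probe set 1420393_at ran from 4.85 to 5.35 in KO and from 5.01 to 5.59 in WT with DMSO, and from 5.05 to 5.37 in KO and from 5.11 to 5.45 in WT with RA839. The groups overlapped, with differences of −0.16 ± 0.13 in DMSO (95% interval −0.44 to 0.13, adjusted p = 0.442) and −0.08 ± 0.13 under RA839 (−0.37 to 0.20, adjusted p = 0.693). Its pooled SD of 0.19 lay next to the median of 0.20 over all probe sets. Every Nos2 value lay below the array medians of 5.61 to 5.71, so the probe set was dim. This limits what its narrow band can show about Nos2 RNA.

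Chil3 was high in WT and varied widely in KO. Probe set 1419764_at read 12.43, 13.28, 10.94 and 13.18 in KO with DMSO, against 13.50, 13.61, 13.57 and 13.70 in WT with DMSO. With RA839 it read 12.43, 13.38, 10.66 and 13.25 in KO, against 13.41, 13.89, 13.71 and 13.76 in WT. All KO arrays lay below all WT arrays in both media, KO array 3 by far the most, and the difference missed the threshold in DMSO (−1.14 ± 0.52, 95% interval −2.24 to −0.04, adjusted p = 0.134) and under RA839 (−1.26 ± 0.52, adjusted p = 0.084). Groups that do not overlap were found for 26.7% of all probe sets in DMSO and 27.6% under RA839, and for 5 of the 7 member probe sets in DMSO and 4 under RA839.

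The mean of the 10 neutrophil and precursor markers, of which 3 were lower in KO in DMSO, was also lowest on KO array 3. It was 5.42, 5.93, 5.04 and 5.12 on KO arrays 1 to 4 with DMSO, against 6.09, 5.45, 6.07 and 6.09 on WT arrays 1 to 4 with DMSO. With RA839 it was 5.46, 5.60, 4.97 and 5.26 in KO, against 5.90, 5.25, 5.72 and 5.57 in WT. KO array 4 was low for these neutrophil and precursor markers and not for Chil3, and KO and WT overlapped. Other marker means were lowest of the KO group on array 3 too. This held for T cell markers in both media (5.38 with DMSO, 5.29 with RA839). With DMSO it also held for eosinophil (5.14) and NK cell markers (3.71). The part of any such cells in the Chil3 values was not tested.

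KO array 3 set much of the size of the Chil3 difference. Without both KO arrays numbered 3, chosen after seeing the data, it was −0.63 in DMSO (adjusted p = 0.0769) and −0.67 under RA839 (adjusted p = 0.0521). Without KO array 2 with RA839, the difference under RA839 was −1.58 and passed (adjusted p = 0.0476). The probe set annotated to both Chil4 and Chil3 read 10.36, 11.70, 8.69 and 11.60 in KO with DMSO, against 12.17, 12.32, 12.07 and 12.30 in WT with DMSO. It followed the same array order in KO, lowest on array 3, and its difference was −1.63 ± 0.65 (adjusted p = 0.0868). Chil3 and Chil4 are close relatives, and signal from one cannot be told apart from the other on this probe set.

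Retnla separated the arrays rather than the genotypes. Probe set 1449015_at read 8.64, 9.31, 7.56 and 7.13 in KO with DMSO, against 7.20, 5.6, 11.17 and 8.67 in WT with DMSO. With RA839 it read 8.88, 8.93, 7.35 and 7.09 in KO, against 5.56, 5.03, 9.74 and 8.04 in WT. WT array 3 was the highest and WT array 2 the lowest of all in both media, with KO in between, and arrays 1 and 2 led in KO as they did for Arg1. Its pooled SD of 1.76 was exceeded by 0.0422% of all probe sets. The difference was 0.00 ± 1.09 in DMSO (95% interval −2.30 to 2.31, adjusted p = 0.999) and 0.97 ± 1.09 under RA839 (−1.33 to 3.28, adjusted p = 0.549), so changes of several fold in either direction were not detectable with these arrays.

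Mgl2 had the smallest adjusted p of the members between genotypes. Probe set 1438467_at read 9.08, 9.43, 8.69 and 9.20 in KO with DMSO, against 8.07, 8.25, 8.36 and 7.75 in WT with DMSO. With RA839 it read 8.93, 9.35, 8.79 and 8.90 in KO, against 7.75, 7.42, 7.98 and 7.66 in WT. KO lay above WT on every array in both media, by 0.99 ± 0.18 in DMSO (95% interval 0.62 to 1.36, adjusted p = 0.000984) and by 1.29 ± 0.18, or 2.44-fold, under RA839 (0.92 to 1.66, adjusted p = 8.73e-05). The comparisons in DMSO and under RA839 share no arrays, but same-numbered arrays within a genotype deviate together, so they do not stand for 8 separate cultures per genotype.

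**Figure D2:**
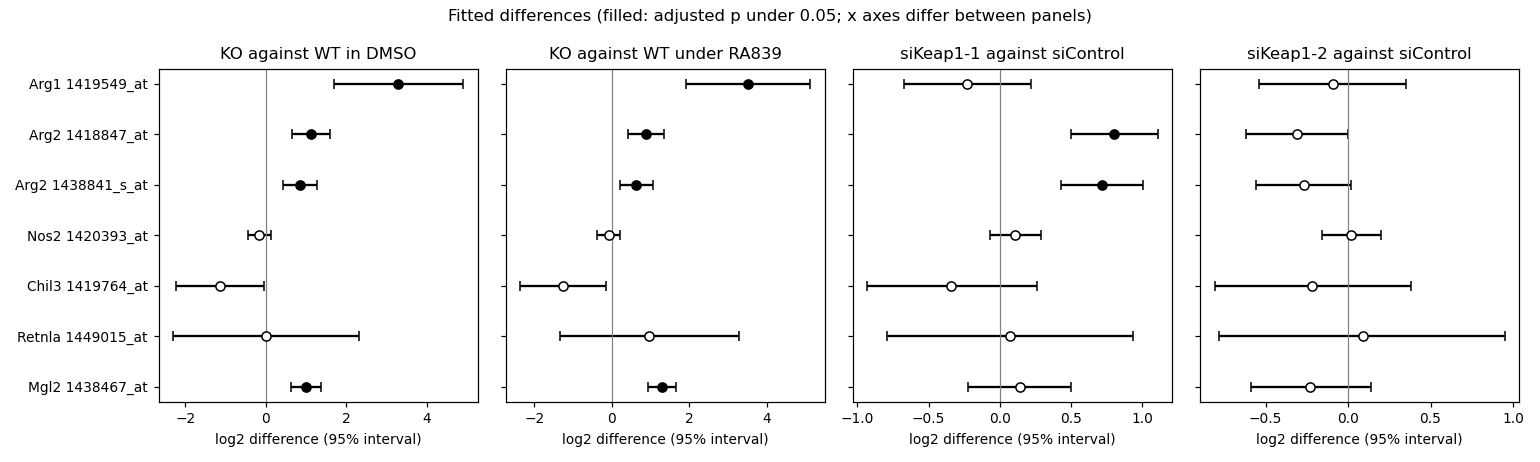
Fitted log2 difference (x axis, differing between panels) of each member probe set with its 95% interval, for KO against WT in DMSO and under RA839 and for each Keap1 siRNA against siControl; filled points passed an adjusted p under 0.05 (n = 4 arrays per group). Arg1, both Arg2 probe sets and Mgl2 are filled in the genotype panels, and Arg2 alone in the siKeap1-1 panel.

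RA839 changed none of the 6 genes past the threshold within 4 h. In WT, 0 of the 7 probe sets passed where 0.344% of all probe sets did. Mgl2 was the 1 with an unadjusted p under 0.05 in limma, as had 4265 of all 45037 probe sets. In KO, 0 of the 7 passed and 0 had an unadjusted p under 0.05. There, 0% of all probe sets passed and 860 of the 45037 had an unadjusted p under 0.05. No member's groups were apart in either genotype, against 5.02% of all probe sets in WT and 2.14% in KO.

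Mgl2 and Retnla were lower with RA839 than with DMSO in each same-numbered WT pair. Mgl2 differed by −0.31, −0.83, −0.38 and −0.09 in pairs 1 to 4, with a fitted difference of −0.40 ± 0.18 (95% interval −0.77 to −0.03, unadjusted p = 0.0361, adjusted p = 0.486). Retnla differed by −1.64, −0.57, −1.43 and −0.62, with a fitted difference of −1.07 ± 1.09 (95% interval −3.37 to 1.24, adjusted p = 0.787). With the replicate number as a block the adjusted p was 0.447 for Mgl2 and 0.16 for Retnla, so neither passed. WT array 2 with RA839, the array with the weak 5′ signal, gave the lowest of these Mgl2 differences, and without both WT arrays numbered 2 the Mgl2 difference was −0.26 (adjusted p = 0.797).

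The other members stayed close to DMSO in WT relative to their spread. Arg1 differed by −0.29 ± 0.76 (adjusted p = 0.927) and Chil3 by 0.10 ± 0.52 (adjusted p = 0.968). Nos2 differed by −0.01 ± 0.13 (95% interval −0.29 to 0.28, adjusted p = 0.989), and the Arg2 probe sets by −0.01 ± 0.22 and 0.03 ± 0.20 (adjusted p = 0.992 and 0.978). The intervals were narrow for Nos2 and Arg2, at most 0.48 from 0, and wide for Arg1, at −1.90 to 1.31. Nos2 was dim, below the array medians, which limits what its narrow interval can show.

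In KO the same-numbered Arg1 differences were 0.03, −0.11, 0.00 and −0.19, so KO arrays 1 and 2 stayed above KO arrays 3 and 4 under RA839. Arg2 (1418847_at) differed by 0.09, 0.10, −0.65 and −0.48, lower with RA839 in KO pairs 3 and 4 only, and its fitted difference was −0.23 ± 0.22. The fitted differences in KO were −0.07 ± 0.76 for Arg1, −0.19 ± 0.20 for Arg2 on 1438841_s_at and 0.07 ± 0.13 for Nos2. They were −0.03 ± 0.52 for Chil3, −0.10 ± 1.09 for Retnla and −0.10 ± 0.18 for Mgl2, and each member had an adjusted p of 1. The RA839 response of WT minus that of KO passed for 0 of the 7 members, with 0 at an unadjusted p under 0.05, where 0.0377% of all probe sets passed. Its values were −0.97 ± 1.54 for Retnla, −0.30 ± 0.25 for Mgl2 (95% interval −0.82 to 0.23), −0.22 ± 1.07 for Arg1 and 0.13 ± 0.73 for Chil3. They were 0.22 ± 0.31 and 0.21 ± 0.28 for the Arg2 probe sets and −0.07 ± 0.19 for Nos2, with an adjusted p of 1 for each member.

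**Figure D3:**
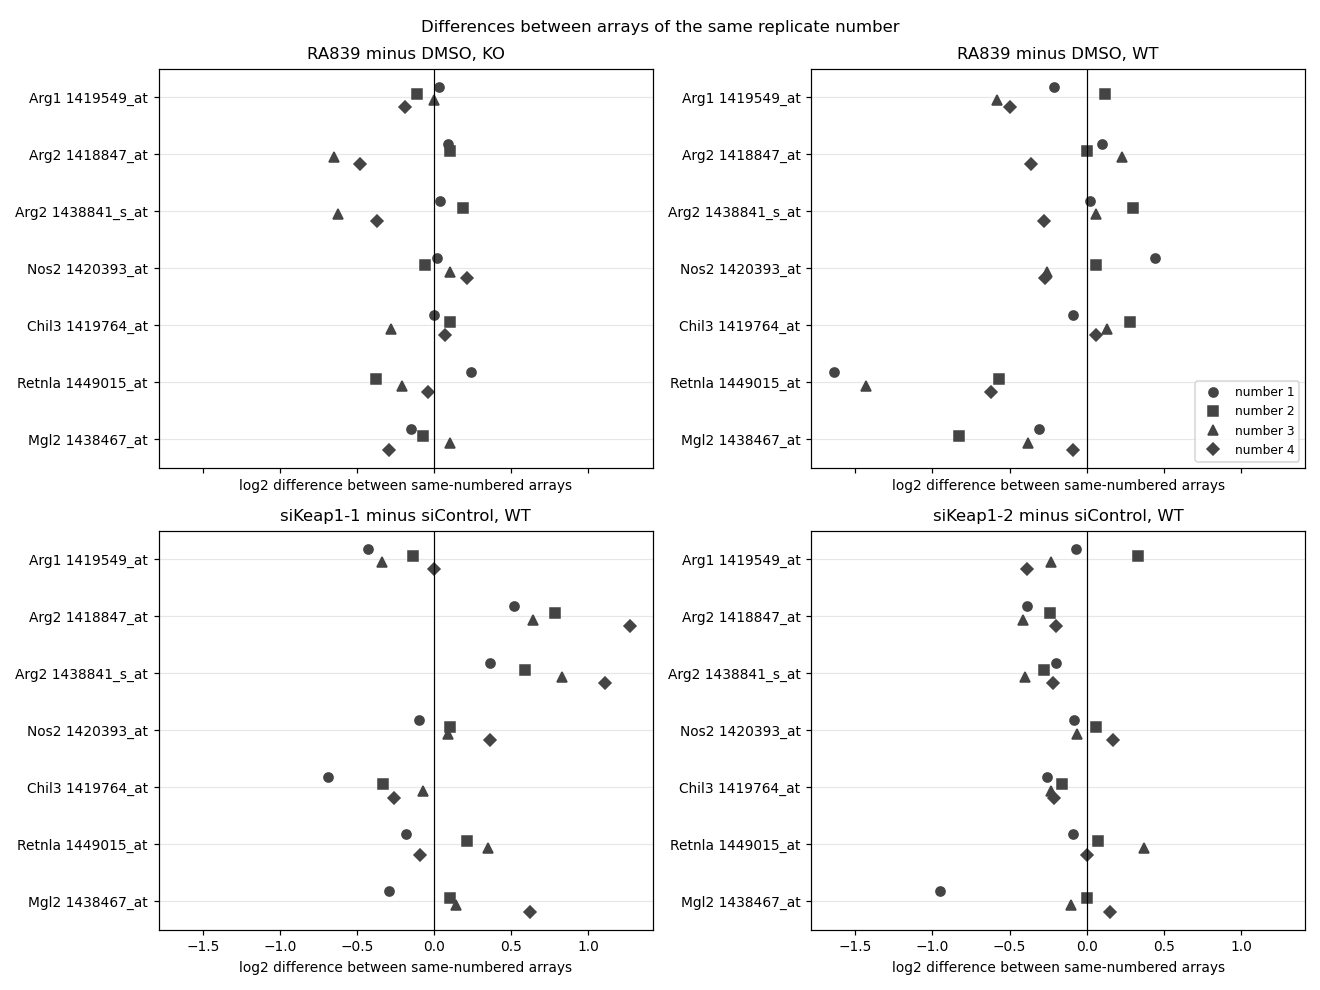
Log2 difference between arrays of the same replicate number (x axis, 1 scale for all panels) for RA839 minus DMSO in KO and in WT and for each Keap1 siRNA minus siControl; symbols give the number, which pairs the arrays in these comparisons. Retnla and Mgl2 lie left of 0 in all 4 WT pairs with RA839, and Arg2 lies right of 0 with siKeap1-1 and left of 0 with siKeap1-2 in all 4 pairs.

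Of the members, Arg2 alone passed with a Keap1 siRNA in the fit without a replicate block, and the siRNAs differed in their effect on it. With siKeap1-1 both Arg2 probe sets were higher than with siControl, by 1.74- and 1.65-fold. With siKeap1-2 both were slightly lower and did not pass. For siKeap1-1, 2 of the 7 probe sets passed, both higher, where 9.55% of all probe sets passed (5.18% higher). For siKeap1-2, 0 of the 7 passed in limma, 1 had an unadjusted p under 0.05, and 6.78% of all probe sets passed. Both comparisons use the same siControl arrays.

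Arg2 (1418847_at) read 7.60, 7.71, 7.89 and 7.83 with siKeap1-1 and 6.69, 6.70, 6.84 and 6.36 with siKeap1-2, against 7.08, 6.94, 7.25 and 6.56 with siControl. Probe set 1438841_s_at read 8.45, 8.70, 9.02 and 8.85 with siKeap1-1 and 7.89, 7.83, 7.79 and 7.52 with siKeap1-2, against 8.09, 8.11, 8.19 and 7.73 with siControl. On both, every siKeap1-1 array lay above every array of the other groups, and siKeap1-2 overlapped siControl. Groups that do not overlap were found for 15.7% of all probe sets with siKeap1-1 and 16% with siKeap1-2.

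The siKeap1-1 difference was 0.80 ± 0.14 (95% interval 0.50 to 1.11, adjusted p = 0.00342) on 1418847_at and 0.72 ± 0.13 (adjusted p = 0.00467) on 1438841_s_at, higher in 4 of 4 pairs. The siKeap1-2 difference was −0.31 ± 0.14 (95% interval −0.62 to −0.00, adjusted p = 0.248) and −0.27 ± 0.13 (adjusted p = 0.285), lower in 4 of 4 pairs. With the replicate number as a block, the siKeap1-2 difference passed on both probe sets (adjusted p = 0.0288 and 0.0344).

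Set against each other, siKeap1-1 exceeded siKeap1-2 by 1.11 ± 0.14 on 1418847_at (2.16-fold, adjusted p = 0.000975) and by 1.00 ± 0.13 on 1438841_s_at (2-fold, adjusted p = 0.00141). Every siKeap1-1 array lay above every siKeap1-2 array on both, where 10.2% of all probe sets had groups apart. In that comparison 2 of the 7 member probe sets passed, both higher, while 4.01% of all probe sets passed (1.82% higher). Keap1 itself was slightly lower with siKeap1-1 than with siKeap1-2 and did not pass (−0.20 ± 0.08, limma unadjusted p = 0.0385, adjusted p = 0.277). Its 95% interval was −0.38 to −0.01. Every siKeap1-1 array lay below every siKeap1-2 array for Keap1, and 4 of 4 pairs were below 0.

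**Figure D4:**
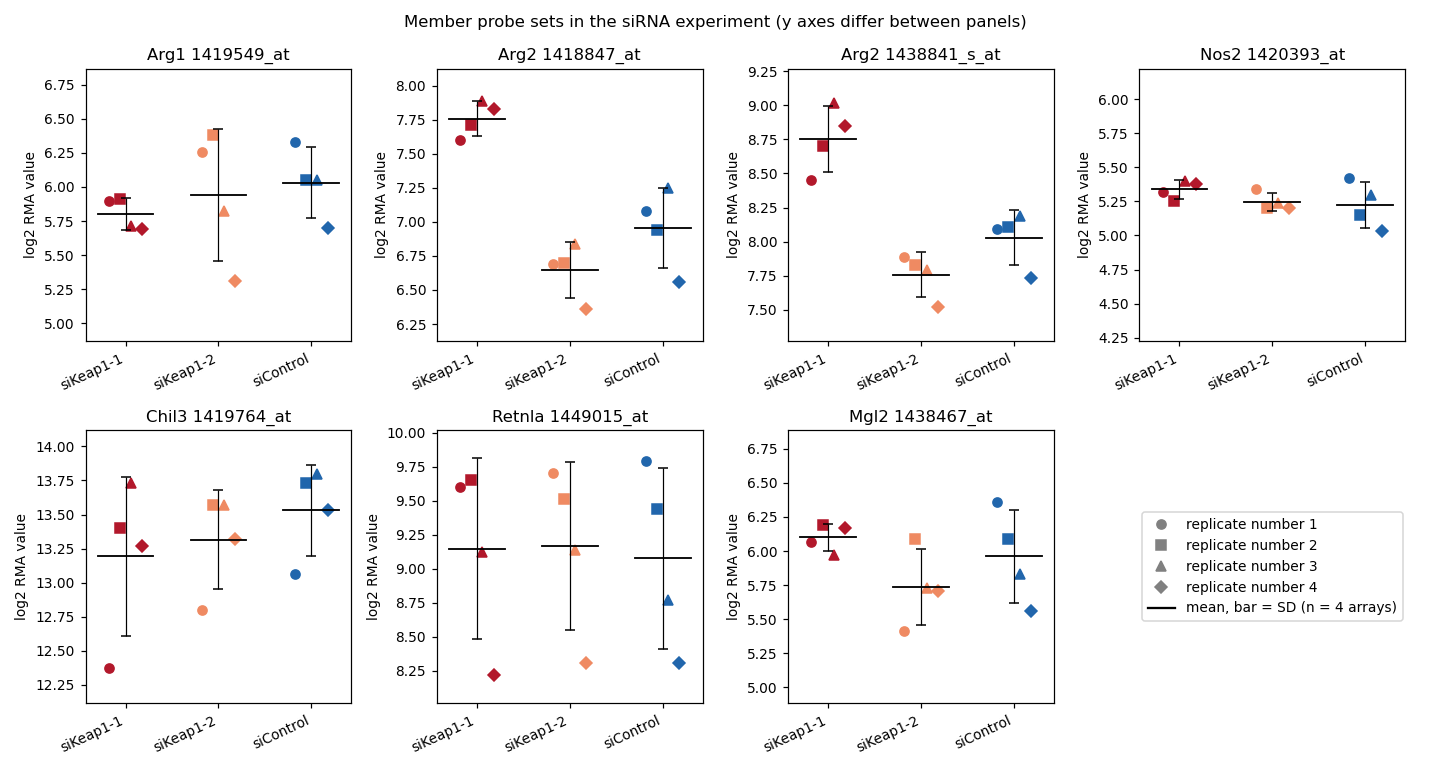
RMA log2 value (y axis, differing between panels) of each member probe set on the 12 siRNA arrays, with siKeap1-1 and siKeap1-2 left of siControl; symbols give the replicate number, lines the mean and bars the SD (n = 4). On Arg2 1418847_at the siKeap1-1 arrays sit at 7.60 to 7.89, above siKeap1-2 at 6.36 to 6.84 and siControl at 6.56 to 7.25.

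The other arginine and polarization genes did not pass with either siRNA. Arg1 read 5.90, 5.91, 5.71 and 5.69 with siKeap1-1 and 6.26, 6.38, 5.82 and 5.31 with siKeap1-2, against 6.33, 6.05, 6.05 and 5.70 with siControl. The groups overlapped, with differences of −0.23 ± 0.20 (adjusted p = 0.591) and −0.09 ± 0.20 (adjusted p = 0.859). Nos2 ran from 5.25 to 5.40 with siKeap1-1 and from 5.20 to 5.34 with siKeap1-2, against 5.03 to 5.42 with siControl. It differed by 0.11 ± 0.08 (adjusted p = 0.49) and 0.02 ± 0.08 (adjusted p = 0.921). These Nos2 readings were dim as well, below the array medians of 5.91 to 5.96.

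Chil3 read 12.37, 13.40, 13.73 and 13.27 with siKeap1-1 and 12.80, 13.57, 13.57 and 13.32 with siKeap1-2, against 13.06, 13.73, 13.80 and 13.53 with siControl. Array 1 was the lowest of each group, and every same-numbered difference was below 0, at −0.69 to −0.07 with siKeap1-1 and at −0.26 to −0.16 with siKeap1-2. The fitted differences were −0.34 ± 0.27 (adjusted p = 0.539) and −0.22 ± 0.27 (adjusted p = 0.727). With the replicate number as a block, the siKeap1-2 difference passed (adjusted p = 0.0401).

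Retnla read 9.60, 9.65, 9.12 and 8.22 with siKeap1-1 and 9.70, 9.51, 9.14 and 8.31 with siKeap1-2, against 9.79, 9.44, 8.77 and 8.31 with siControl. The 3 groups followed the replicate number, with array 4 lowest in each, and differed by 0.07 ± 0.40 (adjusted p = 0.951) and 0.09 ± 0.40 (adjusted p = 0.938). Mgl2 read 6.07, 6.19, 5.97 and 6.17 with siKeap1-1 and 5.41, 6.09, 5.73 and 5.71 with siKeap1-2, against 6.36, 6.09, 5.83 and 5.56 with siControl. Its groups overlapped, with differences of 0.14 ± 0.17 (adjusted p = 0.703) and −0.23 ± 0.17 (adjusted p = 0.507).

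Between the siRNAs, Mgl2 was 0.37 ± 0.17 above siKeap1-2 with siKeap1-1, with a value above 0 in 4 of 4 pairs, and did not pass (95% interval 0.00 to 0.73, unadjusted p = 0.0476, adjusted p = 0.309). Arg1 differed by −0.14 ± 0.20 (adjusted p = 0.834) and Nos2 by 0.09 ± 0.08 (adjusted p = 0.689). Chil3 differed by −0.12 ± 0.27 (adjusted p = 0.901) and Retnla by −0.01 ± 0.40 (adjusted p = 0.994).

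Cell type markers moved with the siRNAs as well, where 15.1% of all genes passed with siKeap1-1 and 11.2% with siKeap1-2. Of 8 measured macrophage markers of 10, 4 were lower with siKeap1-1: Fcgr1 (−0.72, adjusted p = 0.000965), Cd14 (−0.58, adjusted p = 0.00506), Mertk (−0.49, adjusted p = 0.0416) and Adgre1 (−0.17, adjusted p = 0.0259). With siKeap1-2, 2 were lower, Fcgr1 (−1.06, adjusted p = 7.93e-05) and Cd14 (−0.91, adjusted p = 0.000345). Of 7 dendritic cell markers, Ccr7 (−0.91, adjusted p = 0.0205) and Flt3 (−0.52, adjusted p = 0.0299) were lower with siKeap1-1. Of 5 measured eosinophil markers, Siglecf was lower with siKeap1-1 (−0.94, adjusted p = 0.00623) and siKeap1-2 (−0.76, adjusted p = 0.0257). Of 10 measured neutrophil and precursor markers, S100a8 was higher with both (0.52 and 0.55, adjusted p = 0.0424 and 0.0411). Elane, dim at group means of 3.59 to 4.12, was higher with siKeap1-1 (0.53, adjusted p = 0.0271). The median of the 10 was −0.04 with siKeap1-1 and 0.16 with siKeap1-2. S100a9 (−0.44), Ngp (−0.23) and Mpo (−0.23) were lower with siKeap1-1 without passing. Of 6 fibroblast and stroma markers, Pdgfra was higher with siKeap1-1 (0.98, adjusted p = 0.00674) and siKeap1-2 (1.88, adjusted p = 0.000106). The median of the 6 was −0.02 with siKeap1-1 and −0.07 with siKeap1-2. Without passing, Col1a1 (−0.32 and −0.15) and Pdgfrb (−0.17 and −0.07) were lower and Col1a2 (0.11 and 0.15) higher. Pdgfra was lower with siKeap1-1 than with siKeap1-2 (−0.90, adjusted p = 0.0189). The part of these changes in the Arg2 values was not tested.

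The order of group means differed from gene to gene. For Arg1 the means ± SD (n = 4) were 8.59 ± 1.12 for KO with RA839, 8.66 ± 1.10 for KO with DMSO, 5.08 ± 1.22 for WT with RA839 and 5.37 ± 1.42 for WT with DMSO, and only the step between KO and WT exceeded the spread. Mgl2 had 8.99 ± 0.25, 9.10 ± 0.31, 7.70 ± 0.23 and 8.11 ± 0.27 in the same groups, again with KO above WT and no step within a genotype that passed. Arg2 (1418847_at) had 9.43 ± 0.45, 9.66 ± 0.13, 8.55 ± 0.34 and 8.55 ± 0.36. Chil3 ran the other way, lowest in KO with RA839 (12.43 ± 1.25) and highest in WT with RA839 (13.69 ± 0.20), without a step that passed. Among the siRNA groups, Arg2 (1418847_at) averaged 7.76 ± 0.13 with siKeap1-1, 6.65 ± 0.20 with siKeap1-2 and 6.96 ± 0.29 with siControl, and siKeap1-1 was the group beyond the spread. Levels of the experiments were not set against each other, since the array medians were 5.61 to 5.71 in the compound experiment and 5.91 to 5.96 in the siRNA experiment.

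Genes whose log2 values followed a member most closely were looked up among 18187 genes, as a description over arrays that fall into genotype or siRNA groups. Over the 16 compound arrays, Arg1 was followed by the Fc receptor Fcgr1 (Pearson r = 0.977), the hypoxia factor subunit Epas1 (0.974) and the dendritic cell activation antigen Cd83 (0.966). Mgl2 was followed by Lnx2 (0.969), Rnf180 (0.968) and Thoc2l (0.963). Arg2 was followed by Klhl18 (0.969), Pcbp2 (0.957) and Tmtc2 (0.955) on 1418847_at, and by Arhgap22 (0.950), Klhl18 (0.949) and Zfp277 (0.944) on 1438841_s_at. Over the 12 siRNA arrays the genes were Lsm4 (0.964), Ypel4 (0.955) and Pygl (0.955) for 1418847_at, and Ermp1 (0.954), Sec14l2 (0.953) and Lsm4 (0.949) for 1438841_s_at.

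Genes that supply arginine or use its products were read from a list of 22, of which 19 were measured, with 1 probe set per gene and adjustment over 18193 genes. In KO against WT in DMSO, 2 were higher and 1 lower (15.8% of the list, against 25.1% of all genes, with medians of −0.06 and −0.02). Slc7a2, a cationic amino acid transporter that brings arginine into the cell, was higher in KO by 1.21 ± 0.12 in DMSO (2.31-fold, adjusted p = 3.95e-06) and by 1.23 ± 0.12 under RA839 (adjusted p = 1.99e-06). Gatm, which moves the amidino group of arginine to glycine, was higher by 0.75 ± 0.15 (adjusted p = 0.00161). Ass1, which starts the rebuilding of arginine from citrulline, was lower by 0.71 on the log2 scale (−0.71 ± 0.15, adjusted p = 0.00346). Ass1 was dim, with means of 4.52 in KO and 5.23 in WT with DMSO. Under RA839 2 were higher and 3 lower (26.3%, against 30.4% of all genes), among them Odc1, the ornithine decarboxylase that starts polyamine synthesis (−0.60 ± 0.17, adjusted p = 0.0142).

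With siKeap1-1, 4 of these 19 genes were higher and 3 lower (36.8%, against 15.1% of all genes). Odc1 was higher (0.39 ± 0.08, adjusted p = 0.00572), as was the peptidylarginine deiminase Padi4 (0.51 ± 0.14, adjusted p = 0.0257). Aldh18a1, an enzyme of proline and ornithine synthesis, was lower (−0.52 ± 0.10, adjusted p = 0.0033), as was the polyamine acetyltransferase Sat1 (−0.47 ± 0.09, adjusted p = 0.00288). With siKeap1-2, 1 was higher and 1 lower (10.5%, against 11.2%): the spermidine synthase Srm (0.40 ± 0.09, adjusted p = 0.0116) and Sat1 (−0.43 ± 0.09, adjusted p = 0.00635). Srm was also among the genes higher with siKeap1-1 (0.34 ± 0.09, adjusted p = 0.0208). Between the siRNAs 2 passed (10.5%, against 7.45%), with the arginine transporter Slc7a1 lower (−0.46 ± 0.08, adjusted p = 0.00423) and Asl, the last enzyme of arginine synthesis, higher (0.29 ± 0.06, adjusted p = 0.016) with siKeap1-1.

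Of 10 measured genes of 11 that make the nitric oxide synthase cofactor tetrahydrobiopterin or handle the synthase's inhibitors, 3 were lower and 0 higher in KO in DMSO (30.0%, against 25.1%). Gch1, the first enzyme of the cofactor's synthesis, differed by −0.65 ± 0.14 (adjusted p = 0.0041). Gchfr, the regulatory protein that restrains Gch1, differed by −0.68 ± 0.12 (adjusted p = 0.000544), and Ddah1, which breaks down a synthase inhibitor, by −0.34 ± 0.08 (adjusted p = 0.00894). Gchfr was higher with both Keap1 siRNAs, by 0.74 ± 0.08 with siKeap1-1 (adjusted p = 7.57e-05) and 0.43 ± 0.08 with siKeap1-2 (adjusted p = 0.00422). Spr, a later enzyme of that pathway, was higher by 0.57 and 0.60 (adjusted p = 0.00218 and 0.0023), and Gch1 was lower (−0.36 and −0.39, adjusted p = 0.0149 and 0.0123). In all, 3 were higher and 1 lower with siKeap1-1 (40.0%, against 15.1% of all genes) and 2 higher and 1 lower with siKeap1-2 (30.0%, against 11.2%), and Nos2 itself did not pass in these comparisons. Gchfr means were near or below the array medians, at 5.09 in KO and 5.77 in WT with DMSO. With siKeap1-1, siKeap1-2 and siControl the Gchfr means were 5.84, 5.53 and 5.10.

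Of 24 measured genes of a 26-gene list of the interleukin 4 and interleukin 13 response, 2 were higher and 3 lower in KO in DMSO (20.8%, against 25.1% of all genes). The cadherin Cdh1 was higher (1.46 ± 0.43, adjusted p = 0.0205), as was the signalling suppressor Socs2 (0.67 ± 0.15, adjusted p = 0.00477). The kinase Matk was lower (−0.94 ± 0.13, adjusted p = 0.000122), as was the lipid-sensing receptor Pparg (−0.79 ± 0.15, adjusted p = 0.00147). Under RA839 3 were higher and 3 lower (25%, against 30.4%), among them the transcription factor Irf4 (1.01 ± 0.26, adjusted p = 0.00791) and the lipoxygenase Alox15 (0.98 ± 0.21, adjusted p = 0.00279), both higher. Alox15 was dim, with means of 4.88 in KO and 3.90 in WT with RA839. Members lay on both sides of 0, and the share was near that of all genes.

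Both Keap1 siRNAs were accompanied by more Il4ra, the interleukin 4 receptor chain, at 0.72 ± 0.09 each (adjusted p = 0.000148 with siKeap1-1 and 0.000193 with siKeap1-2), and by less Klf4, a transcription factor of this response (−0.70 and −0.54, adjusted p = 0.00348 and 0.0203). Clec10a, the lectin most like Mgl2, was higher with siKeap1-1 (0.62 ± 0.17, adjusted p = 0.0297). In all, 2 were higher and 1 lower with siKeap1-1 (12.5%, against 15.1%) and 1 higher and 3 lower with siKeap1-2 (16.7%, against 11.2%).

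Of 25 measured genes of a 28-gene list of the lipopolysaccharide and interferon gamma response, 2 were higher and 2 lower in KO in DMSO (16%, against 25.1%). The costimulatory molecule Cd86 was higher (1.16 ± 0.19, adjusted p = 0.000387) and its relative Cd80 lower (−0.52 ± 0.09, adjusted p = 0.000781). Under RA839 4 were higher and 4 lower (32.0%, against 30.4%), with the cytokine Il1b higher (2.49 ± 0.64, adjusted p = 0.00856) and the itaconate enzyme Acod1 lower (−2.03 ± 0.63, adjusted p = 0.0229). Il1b was lower with siKeap1-1 (−1.07 ± 0.25, adjusted p = 0.0141) and with siKeap1-2 (−1.14 ± 0.25, adjusted p = 0.0132), while the cytokine signalling inhibitor Socs3 was higher (1.42 ± 0.11 and 0.63 ± 0.11, adjusted p = 1.01e-05 and 0.00368). In all, 1 was higher and 4 lower with siKeap1-1 (20%, against 15.1% of all genes) and 2 higher and 6 lower with siKeap1-2 (32.0%, against 11.2%).

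Among 15 measured of 17 transcription factors known at promoters of these genes, 3 were higher and 2 lower in KO in DMSO (33.3%, against 25.1%). Epas1, which in mouse macrophages is known to raise Arg1, was higher in KO (1.22 ± 0.35, adjusted p = 0.0186), and its means were 10.99 in KO with DMSO and 9.78 in WT with DMSO. With siKeap1-1 it was lower (−1.28 ± 0.14, adjusted p = 7.72e-05), where Arg1 did not pass. Cebpb, a factor that acts at an Arg1 enhancer, was lower in KO under RA839 (−1.13 ± 0.32, adjusted p = 0.0139). Ppard, a nuclear receptor linked to alternative activation, was the 1 listed gene of all 5 lists that passed for RA839 in WT (0.83 ± 0.18, adjusted p = 0.0408, against 0.660% of all genes). Ppard was also higher with siKeap1-1 (0.57 ± 0.07, adjusted p = 0.000139) and siKeap1-2 (0.87 ± 0.07, adjusted p = 7.45e-06), and lower in KO than in WT under RA839 (−1.29 ± 0.18, adjusted p = 6.93e-05).

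**Figure D5:**
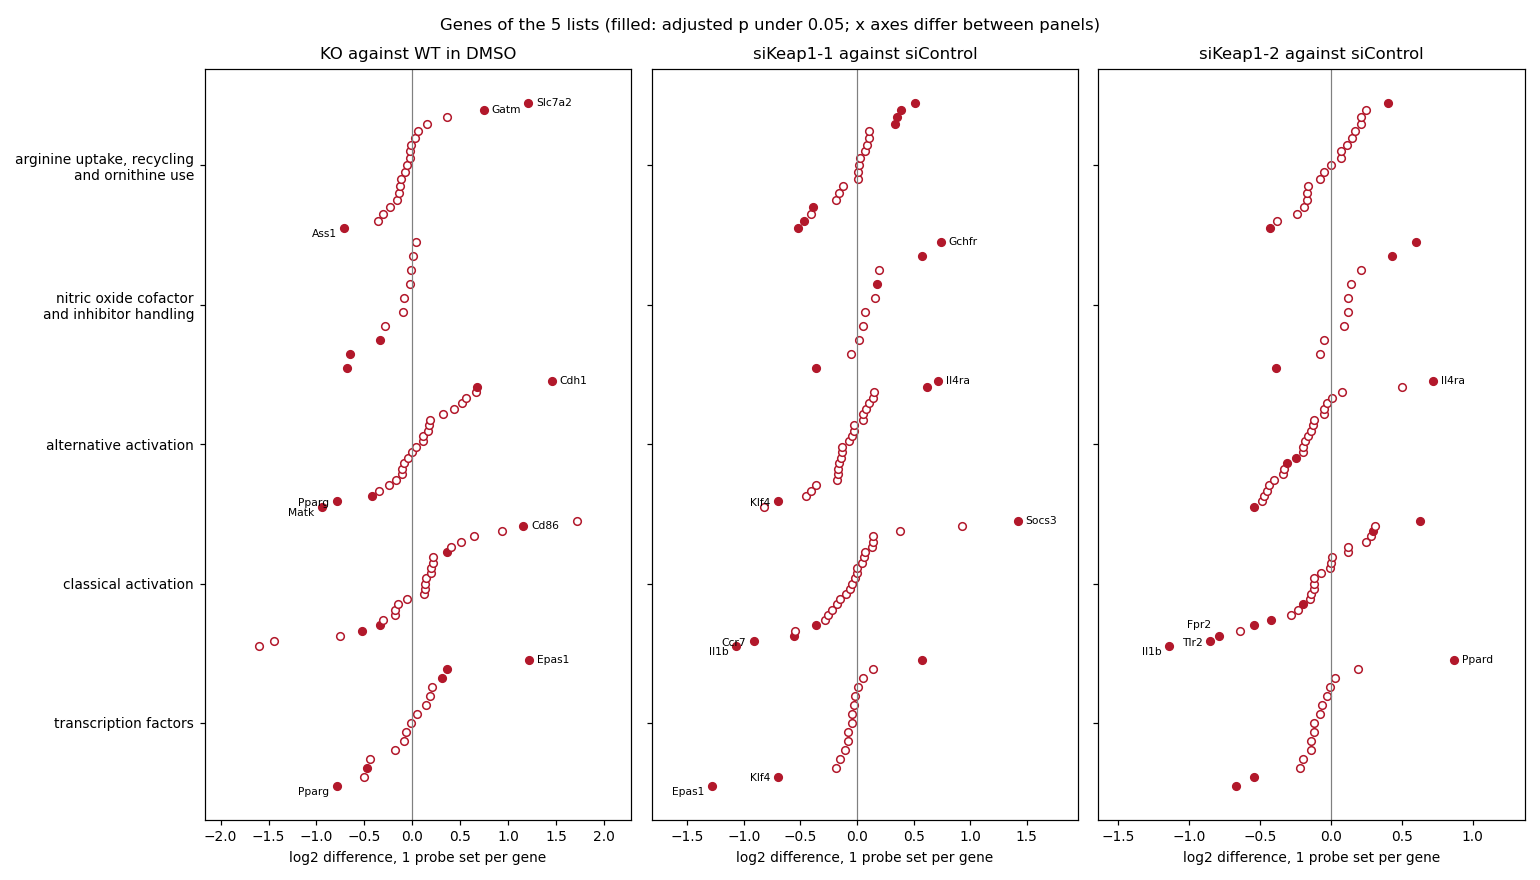
Log2 difference (x axis, differing between panels) of each measured gene of the 5 lists, 1 point per gene in order of size within its list, for KO against WT in DMSO and each Keap1 siRNA against siControl; filled points passed an adjusted p under 0.05, and those of at least 0.7 in size are named. Points lie on both sides of 0 in most lists, with Slc7a2 at 1.21 and Cdh1 at 1.46 in the KO panel and Socs3 at 1.42 and Epas1 at −1.28 in the siKeap1-1 panel.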

How the data were processed

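RNA of 28 samples was measured on Affymetrix mouse arrays. The deposited values are log2 intensities per probe set made with RMA per the submitters' processing notes, whose version the sources do not state. RMA can shrink differences of dim probe sets, and precision is limited by 4 arrays per group. Genes come from the platform annotation: of 45101 probe sets, 64 controls were left out, 34945 named 1 gene, 932 several and 9160 none.

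Each experiment was fitted alone with limma 3.58.1 in R 4.3.3 (1 coefficient per group, eBayes without trend, two-sided, Benjamini-Hochberg over 45037 probe sets). Gene lists used the probe set with the highest mean per gene (18193 genes). The 6 genes, the lists and the markers were chosen with earlier results of these data known, so counts are descriptions. The text names every member in every comparison, Nfe2l2 and Keap1 as checks of the labels, genes among the 4 of each list that were largest past the threshold, and the 3 genes most correlated with each member that passed. Cell type markers that passed in KO against WT in DMSO or with a Keap1 siRNA are given as values.

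The labels give the replicate numbers and do not say what they share. Same-numbered arrays deviated together across probe sets among KO arrays (correlations of 0.58 to 0.60), among WT arrays (0.20 to 0.40) and among siRNA arrays (0.11 to 0.63), but not between genotypes (−0.22 to −0.01). The block is therefore an alternative, and p-values without it leave out this pairing. The procedure was tested on simulated data in which arrays varied independently, so that test does not cover p-values that leave out this pairing. Promoter sequences are RefSeq's (GRCm38.p6).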

Additional observations from a re-analysis of the deposited data

Results flagged for a closer look

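Arg1 on WT array 3 stood apart from the other arrays of its group in both media, at 6.89 with RA839 (the others at 4.31 to 4.65) and at 7.47 with DMSO (the others at 4.33 to 4.86). In each case the gap to the next array exceeded Dixon's 95% critical share of the group's range. These were 2 of 49 groups tested, and chance gives about 1 in 20. Both arrays share a replicate number, and both had the highest mean of the dendritic cell markers in their groups, at 7.25 and 7.34. Both also had the highest means of the macrophage markers (12.42 and 12.49) and of the B cell markers (5.22 and 5.15). The part of any such cells was not tested.

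The Keap1 siRNAs differed in their effect on Arg2. The effect of siKeap1-1 minus that of siKeap1-2 was 1.11 ± 0.14 on 1418847_at (adjusted p = 0.000975) and 1.00 ± 0.13 on 1438841_s_at (adjusted p = 0.00141) in limma, and the siControl arrays cancel in this difference.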

How the results depend on the processing

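The 56 results (7 member probe sets in 8 comparisons) were recomputed under alternatives that gave 1068 values: 1055 kept their direction and side of the threshold or had none past it, 9 lost a call, 4 gained one and 0 calls reversed. Of the 1055, 66 values changed sign while past the threshold in neither fit. With the replicate block, 2 member probe sets passed for KO against WT under RA839 in place of 4, where the numbers do not pair the genotypes, and 3 in place of 0 for siKeap1-2 against siControl. It changed no other call. With 1 probe set per gene or the mean of a gene's probe sets, 1 passed in place of 2 for siKeap1-1 against siControl and for siKeap1-1 against siKeap1-2, since Arg2 then counts once. With means of probe sets, 0 list genes in place of 1 passed for RA839 in WT, and the cause was not tested. Leaving out 1 array at a time gave 3 to 4 calls for KO against WT under RA839 and Arg1 differences of 2.89 to 3.99 in DMSO and 3.13 to 4.12 under RA839. Retnla for RA839 in WT ranged from −1.95 (without WT array 3 with RA839) to −0.06 (without WT array 3 with DMSO). Dropping the other groups from the fit gave no value for the difference between the RA839 responses, which uses all groups. The within-group spread of Retnla, Arg1 and Chil3 limits what 4 arrays can show.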
